A study of Arabidopsis thaliana with 8 samples.

Results

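Roots of cml24-2 seedlings were compared with roots of wild-type seedlings after both had been exposed to aluminium (Al). The line cml24-2 is mutant for CML24, or TCH2 (AT5G37770), the gene of a calmodulin-like protein that binds calcium. The wild type was Col. Seedlings of Arabidopsis thaliana, about 500 and 6 d old, were kept in nutrient solution at pH 5.0 with 10 µM AlCl3 for 6 h, and RNA was taken from the roots. The comparison used every gene of the 4 libraries chosen by their labels, cml24-2 with Al (n = 2) and wild type with Al (n = 2), out of 8 libraries in the series. The other 4 were cml24-2 without Al (n = 2) and wild type without Al (n = 2), kept in the same solution at 0 µM AlCl3. Of 24279 genes listed, 20262 passed the filter on low counts and were tested. The labels do not say what kind of allele cml24-2 is, or whether replicate libraries had cultures of their own. The p-values therefore measure only the spread between these samples.

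Al ions are toxic to roots in acid solution, where they stop elongation and bind to the cell wall. Arabidopsis roots exclude Al mainly by releasing malate through the channel ALMT1 and citrate through a transporter of the MATE family, both under the zinc finger factor STOP1, and sequester it with ABC transporters. Calmodulin-like proteins bind calcium through EF hands and are part of the calcium signalling of touch, wounding and stress, and CML24 is known as the touch gene TCH2.

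Library totals were 11743433 to 12188917 expected counts, and levels are given as CPM, which are counts scaled to a common normalised library total. At this depth a floor of 3 counts stands for 0.246 to 0.255 CPM in 1 library. Replicates with Al were closer to each other (Pearson r across genes of 0.990 for cml24-2 and 0.990 for wild type, on log2 CPM) than those without Al (0.987 for cml24-2 and 0.977 for wild type). The first principal component held 66.3% of the variance and separated libraries with Al from those without, and the second, with 19.6%, separated the genotypes. None of the markers of root hair, endodermis, root cap, xylem and phloem was at 0 in all libraries. The 22 shoot photosynthesis markers summed to 206 and 244 CPM in cml24-2 with Al, against 114 and 58.6 CPM in wild type with Al, and none of them was at 0 in all libraries.

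CML24 itself was at 132 and 95 CPM in cml24-2 with Al, against 43.3 and 39.3 CPM in wild type with Al. Both mutant libraries were above both wild-type libraries, but the 2 groups did not overlap in 58.7% of all tested genes. The log2 fold change was 1.45 (SE 0.37, edgeR adjusted p = 0.045). In the absence of Al it was at 189 and 118 CPM in cml24-2, against 43.5 and 102 CPM in wild type (1.08 on the log2 scale, adjusted p = 0.079). The call with Al was lost under 10 of 16 alternatives, among them DESeq2 and leaving out any 1 of the 4 libraries, with an adjusted p of up to 0.23. As the kind of allele is not given, the level of CML24 does not test the genotype labels. Of the annotated genes within 5 places of CML24, 6 were tested beside it, the nearest being the calmodulin gene CAM1 (-0.10), and none was called. The smallest adjusted p among them was 0.051, for AT5G37790 (-0.43).

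Across all genes, edgeR called 938 genes higher in cml24-2 with Al, which was 4.63% of those tested, and 687 genes lower, which was 3.39%. Of these, 502 were higher and 252 lower by at least 2-fold. In 58.7% of the tested genes, called or not, the CPM of the 2 cml24-2 libraries did not overlap those of the 2 wild-type libraries. The called genes lay on all 5 chromosomes in similar shares, between 7.62 and 8.33% of the tested genes of each. A fit without 1 library with Al has 1 library left in a group and fewer degrees of freedom. Fewer calls in such a fit do not by themselves show that the calls rested on the library left out. The counts fell whichever of the libraries with Al was left out. They were 178 higher and 186 lower without cml24-2 Al replicate 1 and 197 and 93 without cml24-2 Al replicate 2. They were 82 and 66 without wild-type Al replicate 1 and 84 and 82 without wild-type Al replicate 2. A fit of only the 4 libraries with Al called 1894 higher and 1446 lower. Without wild-type control replicate 1 or 2, which enter only through the pooled spread, 1591 and 1567 genes were higher and 1197 and 1217 lower.

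The genotypes also differed without Al, in libraries that share none with the comparison above. There edgeR called 1501 genes higher in cml24-2 (7.41% of those tested) and 1115 lower (5.5%). Both comparisons took the spread of each gene from the same fit of all 8 libraries, so their calls are not independent. Of the genes higher with Al, 473 were also called higher without Al, which was 50.4% of the list with Al and 31.5% of the list without. Of the genes lower with Al, 276 were also called lower without Al, 40.2% and 24.8% of the same lists. Calls in opposite directions were made for 11 genes higher with Al and 10 genes lower with Al. The sign of the genotype difference without Al matched that with Al in 89.8% of the called genes, against 66.8% of all genes tested. Under all 16 alternatives 101 genes stayed called with Al, 55 higher and 46 lower, and 77 of the 101 were also called in the same direction without Al.

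**Figure D1:**
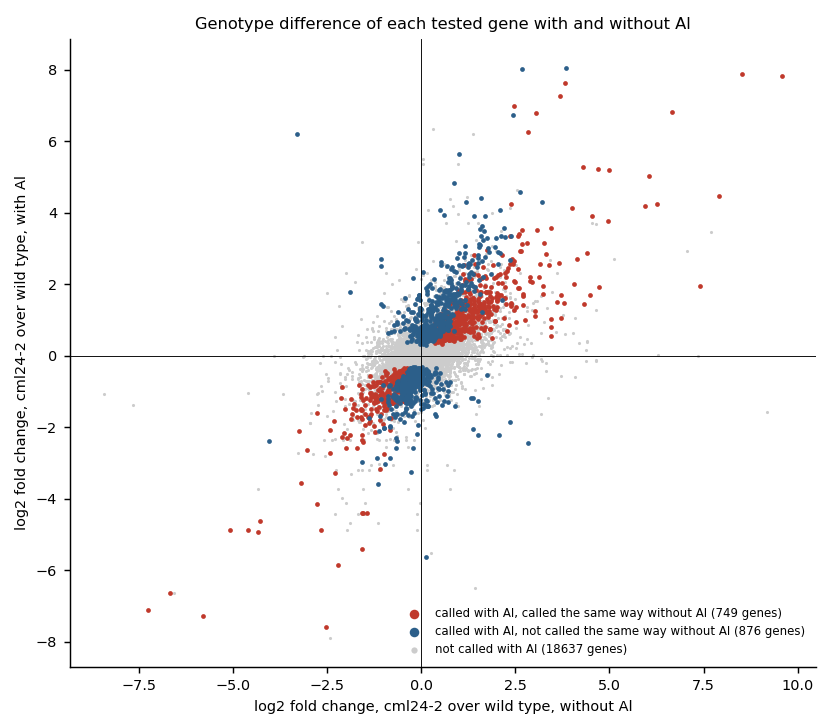
Each point is 1 of the 20262 tested genes, with the log2 fold change of cml24-2 over wild type without Al on the x axis and with Al on the y axis. Red marks genes called with Al and called the same way without Al, blue the other genes called with Al, and grey the genes not called with Al. By that choice the red points can lie only where both fold changes have the same sign. They reach log2 fold changes above 7 and below -7.

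The 15 genes with the largest rises with Al, among called genes with a mean FPKM of at least 2 in the higher group, included several that were near or under the counting floor in wild type. AT1G64795, annotated as an uncharacterized protein, was at 10.1 and 14.97 CPM in cml24-2 with Al, against 0.0829 and 0 CPM in wild type with Al. Its ratio by counts was 298, with a 95% counting interval of 53.0 to 11790, since wild type had a single read. It was as far apart without Al, at 18.7 and 18.6 CPM in cml24-2, against 0.0793 and 0 CPM in wild type.

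NDB4, an external NAD(P)H dehydrogenase of the mitochondrial alternative electron pathway, was at 11.8 and 10.6 CPM in cml24-2 with Al, against 0.498 and 0.0866 CPM in wild type (5.19 on the log2 scale, SE 0.40, adjusted p = 0.00054). It stayed called under all 16 alternatives and was also higher without Al (4.98). AT5G60250, a RING finger protein gene, was at 18.19 and 15.6 CPM in cml24-2 with Al, against 1.16 and 1.04 CPM in wild type (3.92, SE 0.20). Without Al it was at 19.8 and 18.0 CPM in cml24-2, against 0.793 and 0.826 CPM in wild type. ABCA10, an ABC transporter gene, was at 6.54 and 5.18 CPM in cml24-2, against 0.249 and 0.0866 CPM in wild type with Al, and it too stayed called under every alternative.

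Several transcription factor genes of the AP2/ERF family were among the 15. ORA47, known as an activator of jasmonate synthesis genes, was at 58.3 and 31.0 CPM in cml24-2 with Al, against 1.74 and 2.77 CPM in wild type (4.31, SE 1.08, adjusted p = 0.045). ERF13 was at 41.6 and 21.7 CPM, against 0.912 and 1.30 CPM in wild type (4.83, SE 1.12). The cold-response factor CBF1 was at 10.5 and 7.69 CPM in cml24-2, against 0.581 and 0.346 CPM in wild type (4.26, SE 1.02), with counts partly shared with other genes in all 8 libraries. AT1G19210, of the same family, was at 24.7 and 13.4 CPM, against 0.0829 and 0.26 CPM in wild type (6.73, SE 1.69). In each of these 4 genes cml24-2 Al replicate 1 was the highest of the libraries with Al. Their calls were lost without any 1 of the 4 libraries with Al, with an adjusted p of up to 0.26 for AT1G19210, 0.27 for ORA47, 0.24 for ERF13 and 0.22 for CBF1.

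DIC2, a mitochondrial dicarboxylate carrier, was the most abundant of the 15 in CPM, with 420 and 285 CPM in cml24-2 with Al, against 20.3 and 21.5 CPM in wild type (4.08, SE 0.86, adjusted p = 0.025, up to 0.20 without 1 library). In the absence of Al it was at 595 and 325 CPM in cml24-2, against 19.5 and 197 CPM in wild type, so that the wild-type control replicates were themselves far apart. The same was seen for ORA47, at 69.7 and 21.0 CPM in cml24-2 without Al, against 3.17 and 36.4 CPM in wild type. SWEET11, a sucrose exporter, was at 4.11 and 3.51 CPM in cml24-2 with Al, against 0.249 and 0.0866 CPM in wild type (4.41, SE 0.74). The other members of the 15 were AT4G22475, AT4G22485, AT1G20310, AT1G56150 and AT2G10940. Of the 15, 7 were also called higher without Al and 5 were called under every alternative. Without cml24-2 Al replicate 1 or 2, 7 and 6 of the 15 were still called, and without wild-type Al replicate 1 or 2, 5 and 5.

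Of the 15 genes with the largest falls, 8 were called under every alternative and 11 were called lower without Al as well. AT4G29200, annotated as beta-galactosidase related, was at 0.755 and 0.0836 CPM in cml24-2 with Al, against 56.6 and 62.5 CPM in wild type (-7.12, SE 0.44, adjusted p = 0.00038). Without Al it was at 0.586 and 0.168 CPM in cml24-2, against 72.8 and 46.6 CPM in wild type. QQS, the qua-quine starch gene, was at 0.671 and 1.17 CPM in cml24-2 with Al, against 27.0 and 27.4 CPM in wild type (-4.87, SE 0.31, adjusted p = 0.00038), and its difference without Al was -5.08. These genes were low in all 4 mutant libraries and high in all 4 wild-type libraries.

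Other genes among the 15 had their highest CPM in wild type without Al. EXT13, a proline-rich extensin-like gene, was at 0.168 and 0.251 CPM in cml24-2 with Al, against 7.13 and 11.4 CPM in wild type (-5.40, SE 0.72, adjusted p = 0.0051). In the absence of Al it was at 32.5 and 46.0 CPM in cml24-2, against 82.3 and 152 CPM in wild type. AT5G46900, of the lipid-transfer superfamily, had no counts in cml24-2 with Al, against 1.24 and 2.77 CPM in wild type, which is at least 15.74-fold lower by a floor of 3 counts over both mutant libraries. AT5G46890, AT4G12510 and AT5G06630 fell with it. EXT13 and AT4G12510 each carried counts partly shared with other genes in 5 libraries, AT5G46900 and AT5G46890 in 6, and AT5G06630 in all 8.

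MIOX4, a myo-inositol oxygenase, was at 1.17 and 1.004 CPM in cml24-2 with Al, against 9.46 and 8.402 CPM in wild type (-3.02, SE 0.32, adjusted p = 0.0024), and stayed called under every alternative. So did CBL8, a calcineurin B-like calcium sensor, at 0.335 and 0.167 CPM in cml24-2, against 2.82 and 3.29 CPM in wild type (-3.55, SE 0.42). The MADS-box gene AGL42 was at 0.755 and 0.251 CPM in cml24-2, against 5.72 and 4.16 CPM in wild type. Its call was lost without wild-type Al replicate 1 (adjusted p = 0.053). The others were PRP1, BGLU24, KIN1, AT4G19800 and AT4G22463. AT4G22463 fell while AT4G22475 and AT4G22485 rose.

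**Figure D2:**
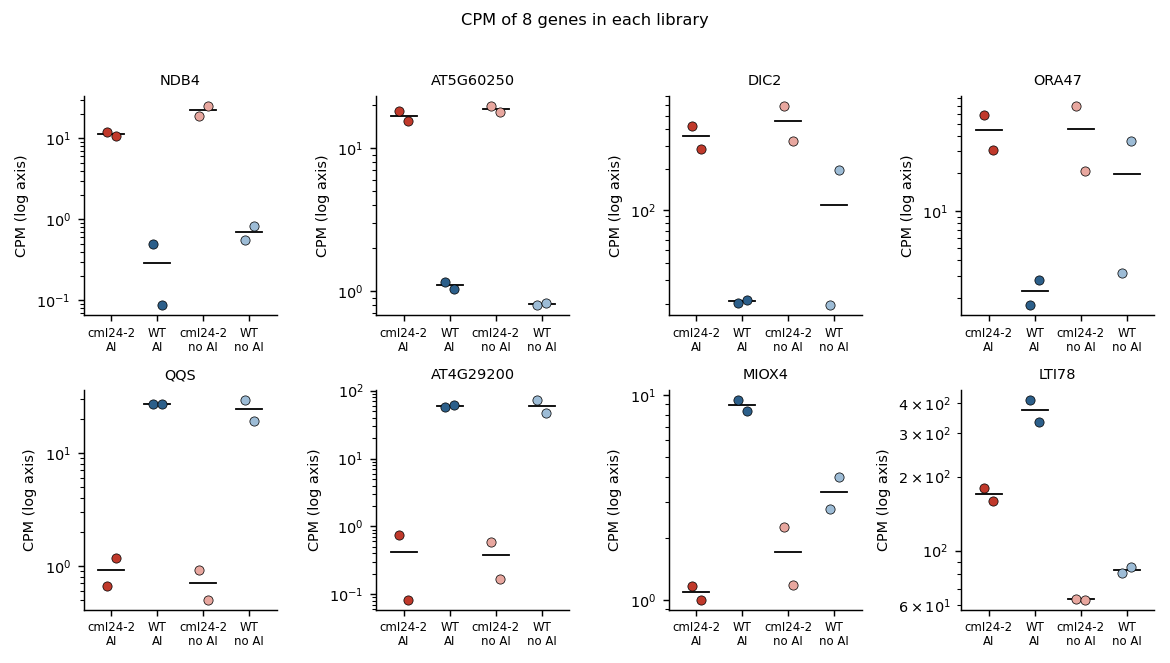
Each panel shows 1 gene, with CPM on a log axis, a point for each library and a bar at the mean of the 2 libraries of a group. NDB4 and AT5G60250 are high and QQS and AT4G29200 low in both mutant groups. For DIC2 and ORA47 the wild-type control replicates are far apart, at 19.5 and 197 CPM for DIC2. MIOX4 and LTI78 are lowered in cml24-2 with Al.

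Of 19 listed genes of Al resistance, all of them tested, 1 was called higher with Al and 0 lower. Over all genes tested 4.63% were called higher and 3.39% lower. Of the 19, 5 had a log2 fold change above 0. The median was -0.10, against 0.00 for all genes. ALMT1, the malate channel, was at 54.2 and 48.3 CPM in cml24-2 with Al, against 53.2 and 47.0 CPM in wild type. Its log2 fold change was 0.03, with a 95% interval of -0.36 to 0.42. Without Al it was at 5.86 and 3.19 CPM in cml24-2, against 0.793 and 1.07 CPM in wild type (2.27, adjusted p = 0.0053). The interaction of genotype and Al for ALMT1 had an adjusted p of 0.061.

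STOP1, the zinc finger factor, was at 295 and 321 CPM in cml24-2 with Al, against 341 and 335 CPM in wild type. Its difference was -0.14, with an interval of -0.34 to 0.07. AT1G51340, of the MATE efflux family, was at 29.8 and 30.5 CPM in cml24-2, against 35.2 and 35.4 CPM in wild type, with an interval of -0.50 to 0.04. The intervals of the polygalacturonase inhibitor PGIP1 (-0.27 to 0.26) and of the vacuolar ABC transporter ABCB27, also called ALS1 (-0.38 to 0.03), also held 0. GDH2, a glutamate dehydrogenase, was at 919 and 889 CPM in cml24-2, against 1289 and 1275 CPM in wild type (-0.50, adjusted p = 0.15). It was called lower with DESeq2, with only the 4 libraries with Al and without either wild-type control replicate. With DESeq2 the list thus held 0 higher and 1 lower, and with the 4 libraries alone 1 higher and 2 lower.

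The gene called in this list was WRKY46, known in Arabidopsis as a repressor of ALMT1. It was at 97.0 and 79.4 CPM in cml24-2 with Al, against 11.3 and 17.3 CPM in wild type (2.63, SE 0.56, adjusted p = 0.026). Both mutant libraries were above both wild-type libraries, as groups that did not overlap were seen in 58.7% of all tested genes. The call was lost with DESeq2, with limma and without any 1 of the 4 libraries, at an adjusted p of up to 0.23. It was also higher without Al, at 38.1 and 22.3 CPM in cml24-2, against 0.952 and 10.5 CPM in wild type.

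Among calmodulin and calmodulin-like genes, CML24 included, 3 of 25 were called higher and 0 lower, with a median of 0.20. AT3G01830 was at 35.3 and 19.0 CPM in cml24-2 with Al, against 2.41 and 2.86 CPM in wild type (3.36, SE 0.82, adjusted p = 0.040). AT3G10190 was at 30.2 and 35.0 CPM in cml24-2, against 21.1 and 21.4 CPM in wild type (0.62, SE 0.11, adjusted p = 0.013). Leaving out cml24-2 Al replicate 1 left 1 call in the list, and leaving out any other library with Al left 0.

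Some calmodulin-like genes that did not pass had wide intervals. CML37 was at 129 and 65.6 CPM in cml24-2 with Al, against 15.8 and 16.9 CPM in wild type (2.57, interval 0.76 to 4.39, adjusted p = 0.087). CML23, the closest relative of CML24, was at 12.1 and 7.28 CPM in cml24-2, against 4.23 and 3.90 CPM in wild type (1.25, adjusted p = 0.28). The touch gene TCH3, another calmodulin-like gene, was at 1088 and 1152 CPM in cml24-2, against 1001 and 1005 CPM in wild type (0.16, interval -0.29 to 0.61). Of 26 tested genes of calcium channels, pumps and kinases, 0 were called with Al by the edgeR fit to all 8 libraries, DESeq2 or limma. Their median was 0.11, and 5 had an unadjusted p under 0.05 with edgeR, against 4868 of all 20262 genes tested. In other edgeR fits 1 was called higher with the strict filter, 4 with only the 4 libraries with Al, and 3 without either wild-type control replicate. The kinase gene CPK28 came nearest in size, at 195 and 173 CPM in cml24-2, against 91.9 and 102 CPM in wild type (0.92, adjusted p = 0.076).

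Genes of jasmonate synthesis and signalling were higher in cml24-2 with Al. Of 19 tested, 9 were called higher and 0 lower, with a median of 1.38, and 16 had a positive log2 fold change. MYC2, the central transcription factor of the response, was at 387 and 293 CPM in cml24-2 with Al, against 97.4 and 91.9 CPM in wild type (1.84, SE 0.33, adjusted p = 0.013). Of the synthesis enzymes, the lipoxygenase LOX3 was at 20.5 and 9.03 CPM in cml24-2, against 2.41 and 0.866 CPM in wild type (3.15, SE 0.70), and LOX4 was higher by 3.13 (SE 0.78). Allene oxide synthase, AOS, was at 100 and 71.5 CPM in cml24-2, against 25.2 and 23.9 CPM in wild type (1.81, SE 0.40).

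The cyclase AOC3 (1.45), the reductase OPR3 (0.41) and the repressors JAZ5 (2.75), JAZ6 (1.34) and TIFY10B (1.41) were called as well. The receptor COI1 (-0.20, adjusted p = 0.22) and the conjugating enzyme JAR1 (-0.15, adjusted p = 0.33) did not pass. With DESeq2 there were 6 calls, with the replicate number as a block 2, and with any 1 library with Al left out 0. The median was 0.91 without cml24-2 Al replicate 1 and 1.66 without replicate 2. Without Al 4 of the 19 were called higher, with a median of 0.64. The wild-type control replicates differed for MYC2, at 128 and 268 CPM.

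Salicylate and immunity genes shared the direction. Of 19 tested, 6 were called higher and 0 lower with Al, with a median of 1.02, and all 19 had a log2 fold change above 0. Without Al 3 of the 19 were called higher and 1 lower, with a median of 0.55. PAD4, a lipase-like regulator of immunity, was at 216 and 191 CPM in cml24-2 with Al, against 81.4 and 105 CPM in wild type (1.13, SE 0.24, adjusted p = 0.027). SARD1, a transcription factor of salicylate synthesis, was at 40.2 and 31.1 CPM in cml24-2, against 13.8 and 14.6 CPM in wild type (1.33, SE 0.21, adjusted p = 0.0088). PBS3, an enzyme of salicylate synthesis, was at 28.3 and 30.6 CPM, against 9.04 and 16.4 CPM in wild type (1.22, SE 0.25).

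SAG101 (0.52), the peptide receptor gene PEPR1 (0.95) and the kinase gene BIK1 (0.46) were also called. The synthase EDS16, also called ICS1, was at 12.8 and 13.8 CPM in cml24-2, against 13.4 and 12.6 CPM in wild type (0.03, adjusted p = 0.96). The co-activator NPR1 was at 84.8 and 91.7 CPM, against 89.0 and 85.6 CPM in wild type (0.02, adjusted p = 0.95). Without cml24-2 Al replicate 1 or wild-type Al replicate 1 no member was called, and without cml24-2 Al replicate 2 or wild-type Al replicate 2 there was 1.

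Of 23 tested WRKY factor genes, 5 were called higher and 0 lower, with a median of 0.27. WRKY18 was at 67.9 and 46.4 CPM in cml24-2 with Al, against 11.9 and 11.6 CPM in wild type (2.28, SE 0.38, adjusted p = 0.011). WRKY48 was at 126 and 112 CPM in cml24-2, against 25.96 and 29.3 CPM in wild type (2.11, SE 0.41). WRKY53 (1.64), WRKY23 (0.94) and WRKY28 (0.49) followed. Without Al 11 of the 23 were called higher, with a median of 0.89. Leaving out cml24-2 Al replicate 1 or 2 gave 1 and 2 calls with Al, and without either wild-type Al replicate 0.

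Of 25 tested ethylene genes, 5 were called higher and 1 lower, with a median of 0.19. Those higher were the synthase genes ACS2 (1.54), ACS7 (1.32) and ACS8 (2.496) and the factors ERF5 and ERF6. ERF6 was at 361 and 303 CPM in cml24-2 with Al, against 84.8 and 87.6 CPM in wild type (1.94, SE 0.50, adjusted p = 0.047), and its call was lost under 12 of 16 alternatives. The gene called lower was AT1G77330, an oxygenase gene, at 64.2 and 57.5 CPM in cml24-2, against 107 and 114 CPM in wild type (-0.86, SE 0.10, adjusted p = 0.0032), which held under all 16. The list had 2 higher and 2 lower with DESeq2 and with the block. Without cml24-2 Al replicate 2 it had 1 higher and 1 lower, and without any other library with Al 0 higher and 1 lower.

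Of 29 tested auxin genes, 5 were called higher and 0 lower with Al, with a median of 0.34. Without Al 9 of the 29 were called higher and 1 lower, with a median of 0.28. YUC5, an auxin synthesis gene, was at 30.7 and 20.07 CPM in cml24-2 with Al, against 2.99 and 3.90 CPM in wild type (2.88, SE 0.43, adjusted p = 0.0075). YUC8, of the same enzyme family, was at 19.0 and 19.1 CPM, against 11.2 and 11.3 CPM in wild type (0.76). The conjugating enzymes GH3.1 (1.51) and WES1, also called GH3.5 (0.64), and the root meristem factor PLT2 (0.86) were called too. With cml24-2 Al replicate 1 or 2 left out there were 2 and 1 calls, and without either wild-type Al replicate 0.

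The abscisic acid and protection genes moved both ways, with 3 of 25 called higher, 7 lower and a median of 0.12. LTI78, also called RD29A, a classical marker of drought and cold, was at 180 and 159 CPM in cml24-2 with Al, against 410 and 335 CPM in wild type (-1.13, SE 0.12, adjusted p = 0.0021). It held under all 16 alternatives, and without Al its difference was -0.40 (adjusted p = 0.060). KIN1, another cold and abscisic acid gene, was at 5.03 and 2.09 CPM in cml24-2, against 24.97 and 22.0 CPM in wild type (-2.72, SE 0.39).

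The other members called lower were the phosphatase genes HAI1 (-1.58), ABI2 (-0.50), HAB1 (-0.45) and PP2CA (-0.43) and the factor ABF3 (-0.44). The phosphatase genes ABI1 (-0.19, adjusted p = 0.35) and HAI3 (0.40, adjusted p = 0.65) did not pass. Those higher were CBF1, RD22 and CYP707A3, an abscisic acid hydroxylase. CYP707A3 was at 78.1 and 57.1 CPM in cml24-2, against 9.12 and 12.9 CPM in wild type (2.62, SE 0.48). Without any 1 library with Al, no member was called higher and 1 or 2 lower, and DESeq2 called 3 higher and 5 lower.

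The 22 shoot photosynthesis markers, chosen as markers of a tissue other than root, were higher in the same libraries as the hormone and immunity genes above. Of these, 6 were called higher with Al and 0 lower, all 22 had a log2 fold change above 0, and the median was 1.87. LHCB5, a light-harvesting protein, was at 5.28 and 5.18 CPM in cml24-2 with Al, against 1.91 and 0.866 CPM in wild type (1.90, SE 0.43). RBCS1A, a Rubisco subunit, was at 23.6 and 36.6 CPM in cml24-2, against 12.8 and 1.56 CPM in wild type (2.06, adjusted p = 0.19). Its wild-type replicates were further apart as a ratio than its cml24-2 replicates. DESeq2 called 11 of the 22. There were, without cml24-2 Al replicate 1 or 2, 0 and 1 calls, and without wild-type Al replicate 1 or 2 there were 5 and 0, with medians of 1.26 to 2.59.

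Without Al the shoot markers summed to 309 and 431 CPM in cml24-2, against 156 and 255 CPM in wild type. There 0 of the 22 were called by the edgeR fit to all 8 libraries or by DESeq2. An unadjusted p under 0.05 with edgeR was seen without Al in 9 of them, against 5946 of all 20262 genes tested. The 27 genes of plastid translation had 0 calls with Al by the edgeR fit to all 8 libraries, DESeq2 or limma. Their median was 0.06, and 4 had an unadjusted p under 0.05 with edgeR, against 4868 of all 20262 genes with Al. An edgeR fit of the 4 libraries with Al alone called 1 higher and 1 lower. The part of these markers in the differences of the other lists was not tested. In these bulk root samples, fewer cells of a type and less RNA per cell cannot be told apart.

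Cell-wall genes had the largest number of calls of the 29 lists with Al. Of 25 tested xyloglucan and expansin genes, 11 were called higher and 3 lower with Al, with a median of 0.43. XTH4, a xyloglucan endotransglucosylase, was at 178 and 224 CPM in cml24-2 with Al, against 63.5 and 68.4 CPM in wild type (1.61, SE 0.12, adjusted p = 0.00050), under all 16 alternatives. The expansin gene EXPA4 was at 124 and 106 CPM in cml24-2, against 47.8 and 48.0 CPM in wild type (1.26, SE 0.18, adjusted p = 0.0062). TCH4, a touch-induced xyloglucan enzyme, was at 627 and 666 CPM in cml24-2, against 254 and 286 CPM in wild type (1.26, SE 0.31, adjusted p = 0.044).

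EXPA17 (3.08), XTH33 (2.51), XTH19 (1.81), EXPA1 (1.797), XTH20 (1.35), EXLA1 (1.31), XTR6 (1.16) and XTH8 (0.69) were the others higher. The 3 lower were XTH14, at 17.2 and 12.8 CPM in cml24-2 with Al, against 30.4 and 32.8 CPM in wild type (-1.08), EXLB1 (-0.81) and EXPB1 (-1.74). XTH19, XTH20 and EXLA1 carried counts partly shared with other genes in 5 to 8 libraries. Without Al the list went the other way on balance, with 5 called higher, 9 lower and a median of -0.17. Leaving out cml24-2 Al replicate 1 or 2 gave 3 and 5 higher and 2 and 0 lower with Al, and without either wild-type Al replicate 1 higher and 0 lower.

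Genes of the endodermis, its Casparian strip and its suberin coat were lower in cml24-2 with Al. Of 16 tested, 0 were called higher and 7 lower, with a median of -0.61, and 1 had a log2 fold change above 0. CYP86A1, a fatty acid hydroxylase of suberin synthesis, was at 121 and 98.0 CPM in cml24-2 with Al, against 207 and 181 CPM in wild type (-0.83, SE 0.16, adjusted p = 0.019). KCS2, a fatty acid elongase, was at 323 and 283 CPM in cml24-2, against 533 and 532 CPM in wild type (-0.81, SE 0.18). The reductase FAR4 was lower as well (-0.59).

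CASP1, a membrane scaffold of the Casparian strip, was at 8.64 and 10.6 CPM in cml24-2 with Al, against 16.7 and 18.8 CPM in wild type (-0.88, SE 0.13, adjusted p = 0.0076). CASP4 (-3.26) and the dirigent protein gene ESB1 (-0.56) were called as well. The member above 0 was SCR, the factor that specifies the endodermis, at 59.1 and 62.7 CPM in cml24-2, against 47.7 and 54.5 CPM in wild type (0.25, adjusted p = 0.29). MYB36, the regulator of the CASP genes, differed by -0.18 (adjusted p = 0.41). Without Al 0 of the 16 were called by the edgeR fit to all 8 libraries or by DESeq2, and the median was -0.26. There 5 had an unadjusted p under 0.05 with edgeR, against 5946 of all 20262 genes tested. With Al DESeq2 called 8 lower. With cml24-2 Al replicate 1 or 2 left out there were 2 and 1 calls, and without either wild-type Al replicate 0, while the median lay between -0.69 and -0.57.

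Of 13 root-hair genes, 1 was called higher and 2 lower with Al, with a median of -0.49. RHS19 was at 8.05 and 5.35 CPM in cml24-2 with Al, against 23.9 and 26.7 CPM in wild type (-1.91, SE 0.30, adjusted p = 0.0082), and PRP3, a proline-rich wall protein, was lower too (-1.11). CSLD3, a cellulose synthase-like enzyme, was at 153 and 143 CPM, against 78.0 and 88.7 CPM in wild type (0.83). Without Al 7 of the 13 were called lower and 0 higher, with a median of -0.84. With Al, leaving out cml24-2 Al replicate 1 left 1 call, lower, and leaving out any other library with Al left 0. Root-cap genes had 0 calls among 6 with the edgeR fit to all 8 libraries, DESeq2 and limma, and a median of 0.32. Of the 6, 1 had an unadjusted p under 0.05 with edgeR, against 4868 of all 20262 genes tested. In edgeR fits of the 4 libraries alone or without either wild-type control replicate 1 was called higher. Of 13 xylem and phloem genes 1 was called, NAC101 (1.5), with a median of -0.15, against 4.63% of all genes called higher.

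Phosphate-starvation genes were lower in cml24-2, with and without Al. With Al 0 of 20 were called higher and 9 lower, the median was -0.57 and 3 had a log2 fold change above 0. Without Al 12 were called lower and 0 higher, with a median of -0.78. SPX1, a phosphate sensor that restrains the starvation factor PHR1, was at 295 and 198 CPM in cml24-2 with Al, against 536 and 496 CPM in wild type (-1.07, SE 0.17, adjusted p = 0.010). PAP17, a purple acid phosphatase, was at 100 and 71.4 CPM in cml24-2, against 192 and 196 CPM in wild type (-1.18, SE 0.15, adjusted p = 0.0042), under all 16 alternatives.

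PHO1;H1, a phosphate exporter, was at 84.9 and 57.2 CPM in cml24-2 with Al, against 174 and 164 CPM in wild type (-1.25, SE 0.17). SQD2, of sulfolipid synthesis, was at 369 and 242 CPM, against 631 and 631 CPM in wild type (-1.05, SE 0.18). The transporter genes PHT1;8 (-1.23) and PHT1;9 (-1.11), SPX2 (-0.58), SPX3 (-1.14) and MGD2 (-0.86) were also called. In all 9 of these genes cml24-2 Al replicate 2 was the lowest of the libraries with Al. PHR1 itself was at 62.3 and 75.6 CPM in cml24-2, against 72.0 and 66.8 CPM in wild type (-0.01, interval -0.25 to 0.23), and PHO1 differed by 0.02. There were, without cml24-2 Al replicate 1 or 2, 8 and 3 calls, and without wild-type Al replicate 1 or 2 there were 1 and 2, with medians from -0.86 to -0.43.

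Of 28 tested iron-deficiency genes, 3 were called higher and 1 lower with Al, with a median of 0.34. All genes tested had 4.63% called higher and 3.39% lower. IRT1, the main iron uptake transporter, was at 105 and 145 CPM in cml24-2 with Al, against 68.6 and 58.0 CPM in wild type (0.98, SE 0.23, adjusted p = 0.036). AT3G12900, an oxygenase gene, was at 26.5 and 34.9 CPM, against 5.97 and 3.12 CPM in wild type (2.75, SE 0.42), and CYP82C4, a cytochrome P450 gene, was higher by 1.73. AT3G25190 was the gene called lower (-0.73). Without Al IRT1 was at 403 and 551 CPM in cml24-2, against 495 and 729 CPM in wild type (-0.36, adjusted p = 0.32). Leaving out cml24-2 Al replicate 1 or 2 gave 2 and 1 calls, and without either wild-type Al replicate 0.

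Of 18 nitrate genes, 2 were called higher and 1 lower, with a median of 0.05. All genes tested had 4.63% called higher and 3.39% lower with Al, so counts of 1 or 2 here are few. NRT1.5, which loads nitrate into the xylem, was at 431 and 345 CPM in cml24-2 with Al, against 191 and 186 CPM in wild type (1.04, SE 0.14, adjusted p = 0.0048), and NRT1.8 was higher by 2.17. The repressor HRS1 was lower (-0.55). Among 17 sulfate and glucosinolate genes, MYB51 was the 1 called, at 188 and 156 CPM in cml24-2, against 73.5 and 80.7 CPM in wild type (1.16). Its call was lost with DESeq2, with the block and with limma. The sulfate transporter gene SULTR1;1 (-1.27, adjusted p = 0.058) was called lower with DESeq2, with the block and with limma on log2(FPKM + 0.1). Without either wild-type Al replicate neither list held a call, and without either cml24-2 Al replicate the nitrate list held 1 higher.

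Of 28 tested glutathione transferase and oxidative-stress genes, 1 was called higher and 4 lower with Al, with a median of -0.20. The shares over all genes tested were 4.63% and 3.39%. The glutathione transferase gene GSTF2 was at 710 and 857 CPM in cml24-2 with Al, against 1266 and 1318 CPM in wild type (-0.72, SE 0.17, adjusted p = 0.034), with counts partly shared with other genes in all 8 libraries. GSTU4 (-1.29), GSTU9 (-0.80) and GSTU24 (-0.71) were lower too, and GSTF3 was higher (0.63). Without Al 6 were called higher and 2 lower, with a median of 0.28. Without any 1 library with Al none was called in that list.

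Among 14 genes of mitochondrial retrograde stress, NDB4 was the only one called with Al by the edgeR fit to all 8 libraries. The median was 0.01, and 5 had an unadjusted p under 0.05 with edgeR, against 4868 of all 20262 genes tested. A fit of the 4 libraries with Al alone called 3 higher and 1 lower. Without Al 4 of the 14 were called higher and 0 lower, with a median of 0.68. AOX1A, the alternative oxidase that marks this response, was at 71.9 and 63.7 CPM in cml24-2 with Al, against 74.9 and 77.0 CPM in wild type (-0.16, interval -0.45 to 0.12). Of 14 class III peroxidases 1 was higher and 1 lower, with a median of -0.12, against 4.63% and 3.39% of all genes tested. PA2 was at 56.7 and 53.8 CPM in cml24-2, against 25.4 and 27.7 CPM in wild type (1.06, SE 0.11, adjusted p = 0.0024), under all 16 alternatives. AT1G05250 was lower (-1.79). Without Al 5 of the 14 peroxidases were called higher and 2 lower, with a median of 0.29, and 2 had a called interaction.

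Among 23 genes of the cell cycle and of replication and repair, 3 were called higher and 1 lower, with a median of -0.12. Shares over all genes tested were 4.63% higher and 3.39% lower. PARP2, a poly(ADP-ribose) polymerase of the DNA damage response, was at 9.64 and 9.20 CPM in cml24-2 with Al, against 2.65 and 2.43 CPM in wild type (1.89, SE 0.20, adjusted p = 0.0024), under all 16 alternatives. The repair gene BRCA1 was at 14.8 and 9.95 CPM, against 6.14 and 6.84 CPM in wild type (0.93), and the cyclin gene CYCD3;1 was higher by 1.26. The mitotic kinase gene CDKB2;1 was lower (-0.62). Of 17 autophagy genes 2 were lower, ATG8H at 59.3 and 51.0 CPM in cml24-2, against 112 and 102 CPM in wild type (-0.96, SE 0.11, adjusted p = 0.0028), and APG8A (-0.52). Without cml24-2 Al replicate 1 or 2 the cell-cycle list held 2 and 3 higher, and without either wild-type Al replicate 1 higher. The autophagy list held 1 lower each time.

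The lists in this paragraph had few calls, and over all genes tested 4.63% were called higher and 3.39% lower. Of 18 clock genes, BOA (0.49), PRR3 (0.89) and TCP11 (0.81) were called higher and 0 lower, with a median of 0.08. Of 22 phenylpropanoid genes FAH1 (1.58) and MYB11 (2.42) were higher and PAL4 (-0.74) was lower, with a median of 0.09. Of 14 flowering-time regulators the repressor SVP was the 1 called, at 7.88 and 5.44 CPM in cml24-2 with Al, against 14.4 and 15.6 CPM in wild type (-1.17). Of 17 heat-shock genes 0 were called by the edgeR fit to all 8 libraries, DESeq2 or limma, and the median was 0.14. Of the 17, 2 had an unadjusted p under 0.05 with edgeR, against 4868 of all 20262 genes tested. An edgeR fit of the 4 libraries alone or without wild-type control replicate 1 called 1 higher. Leaving out 1 library with Al left the clock list with at most 1 call and the phenylpropanoid list with at most 1. SVP lost its call each time except without cml24-2 Al replicate 1, and NAC101 each time.

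**Figure D3:**
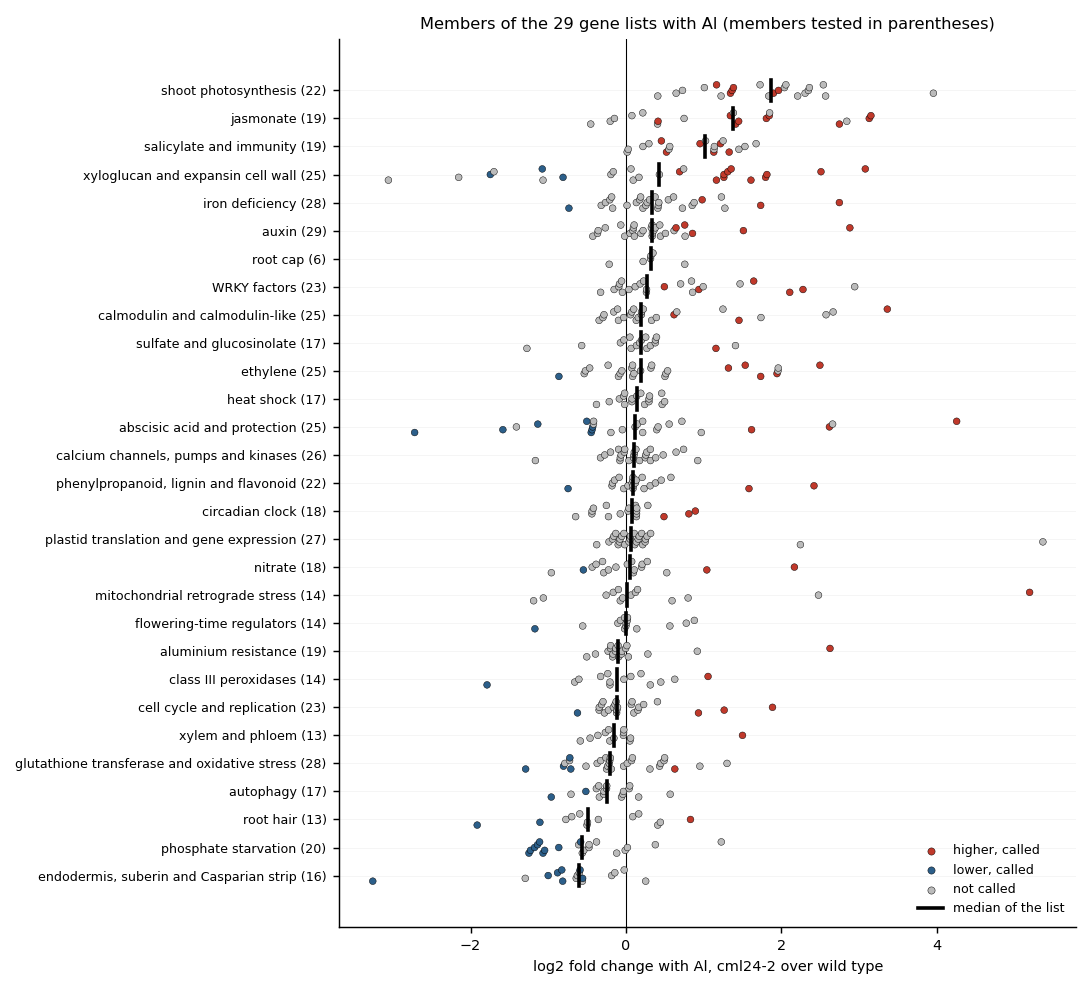
Each point is 1 tested member of a gene list, placed by its log2 fold change of cml24-2 over wild type with Al, and the lists run from the highest median at the top to the lowest at the bottom. Red and blue points are called higher and lower, grey points are not called, and black bars are list medians. Shoot photosynthesis (1.87) and jasmonate (1.38) have the highest medians, and phosphate starvation (-0.57) and endodermis (-0.61) the lowest.

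**Figure D4:**
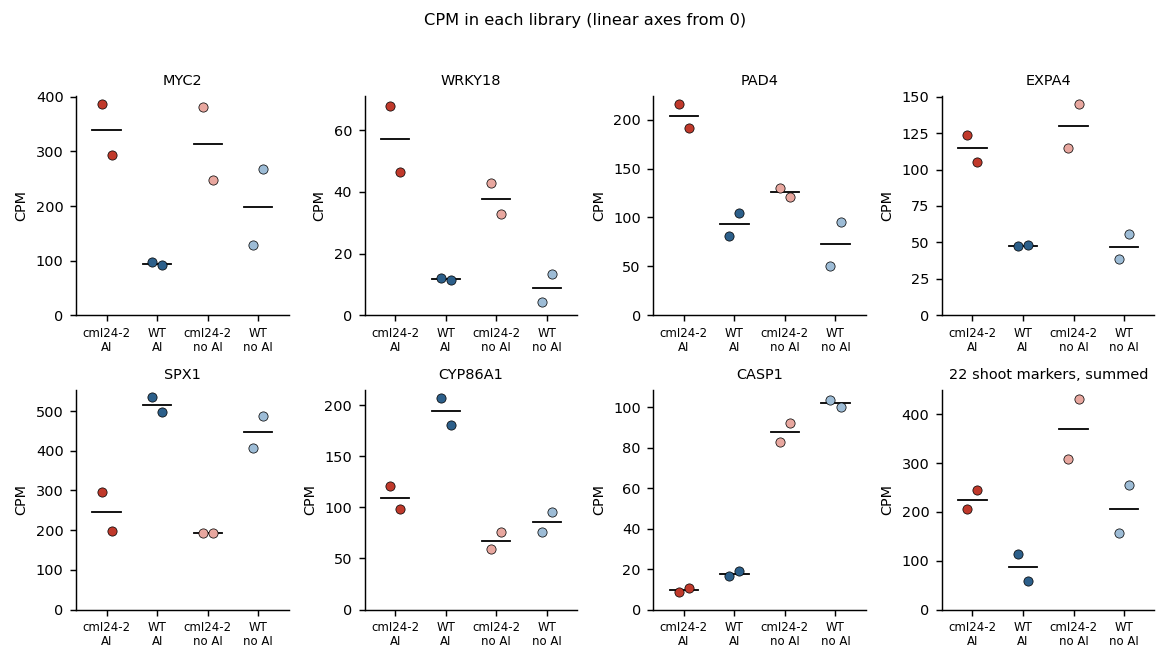
CPM of 7 list members and the summed CPM of the 22 shoot markers are shown on linear axes from 0, with a point for each library and a bar at the mean of a group. MYC2, WRKY18, PAD4 and EXPA4 are higher and SPX1, CYP86A1 and CASP1 lower in cml24-2 with Al than in wild type with Al. The shoot markers sum to 206 and 244 CPM in cml24-2 with Al, against 114 and 58.6 CPM in wild type.

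Gene families taken from the annotation's product lines, a grouping not built for these roots, gave further counts among families with at least 20 tested genes. The integrase-type DNA-binding line, which holds AP2/ERF factors, had 13 of 59 genes called higher (22.0%) and 6 lower. Disease-resistance genes of the CC-NBS-LRR class had 7 of 21 higher (33.3%) and 0 lower, and those of the TIR-NBS-LRR class 8 of 62 higher (12.9%) and 1 lower. MATE efflux genes had 8 of 41 higher (19.5%) and 1 lower. The UPF0497 line had 0 of 36 higher and 9 lower (25%). The peroxidase superfamily line had 8 of 55 higher (14.5%) and 7 lower (12.7%). These families were picked for their counts after the values were seen. Over all genes tested, 4.63% were called higher and 3.39% lower with Al, and 7.41% and 5.5% without Al. Without Al the integrase-type line had 21 higher and 3 lower, CC-NBS-LRR 6 and 0, and TIR-NBS-LRR 9 and 2. The MATE efflux line had 7 higher and 1 lower without Al, UPF0497 0 and 5, and the peroxidase line 11 and 10.

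The test of whether the genotype difference itself depended on Al called few genes. The interaction, the log2 fold change with Al minus that without Al, was called positive in 20 genes, which was 0.0987% of those tested, and negative in 41, which was 0.202%. DESeq2 called 199 in all, and 2513 genes had an unadjusted p under 0.05 with edgeR. Of the 41, 38 were called higher in cml24-2 without Al and 10 lower with Al. Of the 20, 14 were called lower in cml24-2 without Al and 12 higher with Al. Of all 61, 31 had no genotype call with Al. The number called was larger without either wild-type control replicate and smaller without any other library. Such a fit has 1 library left in a group and fewer degrees of freedom. These shifts therefore do not show that the calls rested on the library left out, and their cause was not tested.

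XTH4 showed a genotype difference with Al that was not called without Al. In the absence of Al it was at 168 and 168 CPM in cml24-2, against 180 and 175 CPM in wild type (-0.08, adjusted p = 0.68), and the interaction was 1.69 (SE 0.17, adjusted p = 0.0053). AGP22, an arabinogalactan protein gene, was at 10.7 and 10.1 CPM in cml24-2 with Al, against 10.3 and 11.2 CPM in wild type. Without Al it was at 29.3 and 24.2 CPM in cml24-2, against 136 and 103 CPM in wild type (interaction 2.12, SE 0.23, adjusted p = 0.0086). XTH16 was at 4.70 and 4.85 CPM in cml24-2 with Al, against 3.32 and 2.34 CPM in wild type, and 17.2 and 14.3 CPM in cml24-2 without Al, against 41.2 and 37.6 CPM in wild type. Without Al both genes were lower in both mutant libraries, while with Al the groups overlapped for AGP22 and both mutant libraries were above wild type for XTH16.

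Among those with a negative interaction was PRX52, a class III peroxidase. It was at 98.0 and 94.3 CPM in cml24-2 with Al, against 119 and 103 CPM in wild type. In the absence of Al it was at 8.71 and 7.56 CPM in cml24-2, against 1.19 and 0.413 CPM in wild type (interaction -3.52, SE 0.33, adjusted p = 0.0043). The glutathione transferase gene GSTU22 was at 135 and 136 CPM in cml24-2 with Al, against 131 and 136 CPM in wild type, and at 15.74 and 19.2 CPM in cml24-2 without Al, against 1.59 and 2.89 CPM in wild type (-2.95, SE 0.26). AT2G04050, of the MATE efflux family, was higher in cml24-2 under both conditions. It was at 3.102 and 2.51 CPM in cml24-2 with Al, against 0.829 and 0.606 CPM in wild type, and at 36.6 and 48.6 CPM in cml24-2 without Al, against 0.317 and 0.165 CPM in wild type (interaction -5.45, SE 0.64).

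**Figure D5:**
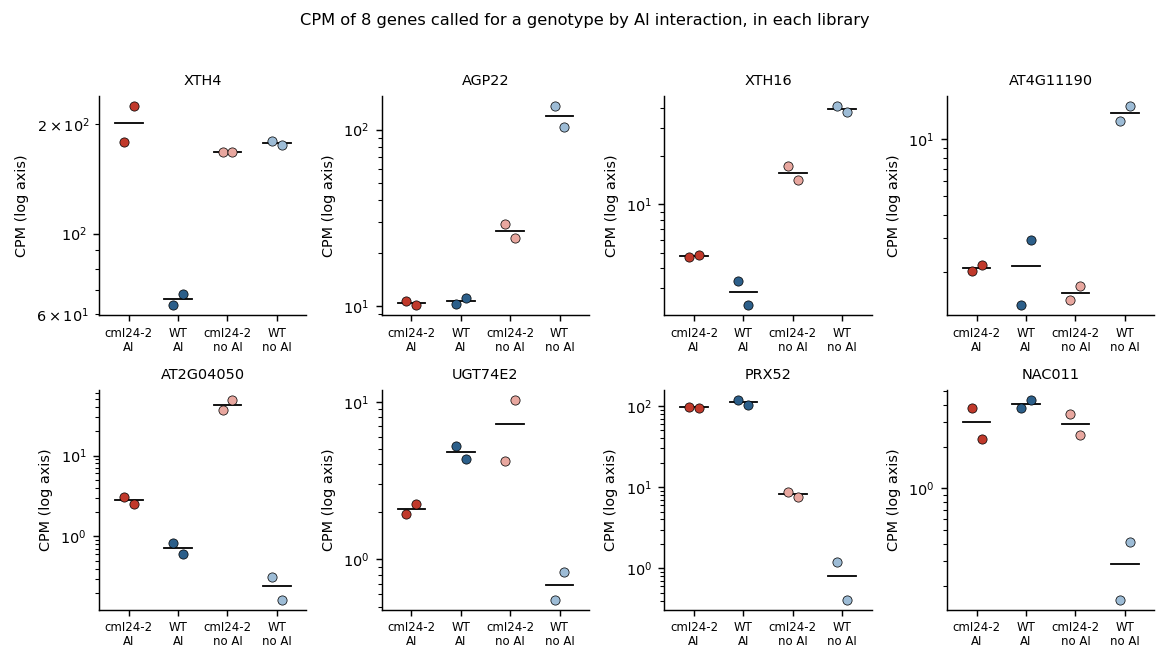
Each panel shows 1 gene called for a genotype by Al interaction, with CPM on a log axis, a point for each library and a bar at the mean of a group. In the top row cml24-2 lies below wild type without Al for AGP22, XTH16 and AT4G11190, and above it with Al for XTH4. In the bottom row all 4 genes are higher in cml24-2 than in wild type without Al.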

How the data were processed

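The deposited files hold, for each library and gene, an expected count, a length and an FPKM, which come from RSEM (run by the authors, per the submitters' processing notes). As deposited, an expected count is the estimated number of reads of a gene, with no scaling. The authors' FPKM divide them by gene length and library size. Versions, aligner, build and strand setting were not given in the sources used here, so reads of overlapping or antisense genes cannot be told apart. Sequencing was on a BGISEQ-500 instrument and RNA came from an RNeasy kit, per the labels' protocols. Genes not listed in a library were taken as 0. In each library 89.1 to 89.5% of these counts were whole within 0.005, and the others carry shared reads. Symbols and product lines came from RefSeq gene annotation (TAIR10.1), which matched 24086 of 24279 identifiers, and no sequences or positions are printed because the files name no build.

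Expected counts were rounded and tested with edgeR 4.0.16 (R 4.3.3), with TMM factors (0.984 to 1.03), filterByExpr, group means fitted to the 8 libraries together (leaving 4 residual degrees of freedom) and the quasi-likelihood F test. A gene was called at an adjusted p (Benjamini-Hochberg) below 0.05 among 20262 genes. SE and 95% intervals of log2 fold changes came from the F statistic, and the common biological coefficient of variation was 11.0%. Counting intervals and floors cover counting error only. The script was tested on simulated data.

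The 29 gene lists (616 distinct genes, 581 tested) and the choice of comparison were made with earlier results of these data known. Named genes were CML24 and its neighbours, the called members of each list with up to 4 others, the 15 largest changes each way among called genes whose groups did not overlap and whose higher group had 2 FPKM or more on average, and the 6 largest called interactions each way with the same FPKM minimum. The values of 1 called list member are not reported here. Alternatives were DESeq2 1.42.0, RLE size factors, no filter, a filter of 1 CPM in 4 libraries, the 4 libraries compared alone, the replicate number as a block, limma 3.58.1 on log2(FPKM + 1) or log2(FPKM + 0.1) for genes reaching 1 FPKM in 2 libraries, and fits that each lacked 1 library. Leaving a library out left 1 library in its group, which is then assumed to vary like the others.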

Additional observations from a re-analysis of the deposited data

Results flagged for a closer look

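In 14 named genes or list members the interaction of genotype and Al was called (edgeR adjusted p under 0.05). All but GSTU22 and AT5G39580 were among the largest called interactions each way, which were named because of this same test. The count of 14 was therefore set largely by that choice and is not itself a result. Over all 20262 genes tested, 20 interactions were called positive (0.0987%) and 41 negative (0.202%). The interaction is given here as the log2 fold change with Al minus that without Al. It was negative for AT3G10113 (-10.75), AT2G04050 (-5.45), AT5G46130 (-4.76), UGT74E2 (-4.56), NAC011 (-3.76), PRX52 (-3.52), GSTU22 (-2.95) and the peroxidase gene AT5G39580 (-1.40). It was positive for AT4G11190 (3.12), MSRB6 (2.26), AGP22 (2.12), XTH16 (2.07), AT3G06990 (2.06) and XTH4 (1.69).

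AT3G10113, of the homeodomain-like superfamily, had no counts in either wild-type library without Al. It was at 8.29 and 3.70 CPM in cml24-2 without Al, which is at least 47.7-fold higher by a floor of 3 counts over both wild-type libraries. With Al it was at 2.77 and 2.17 CPM in cml24-2, against 5.47 and 9.35 CPM in wild type. In 6 libraries its reads were in part assigned to other genes as well, and its fitted value depends on the prior count. AT5G46130 had 2 counts in wild type without Al, against 54 in cml24-2, a ratio of 27.1 with a 95% counting interval of 7.16 to 229.8. UGT74E2, a glycosyltransferase gene, was at 1.93 and 2.26 CPM in cml24-2 with Al, against 5.23 and 4.33 CPM in wild type, and at 4.19 and 10.2 CPM in cml24-2 without Al, against 0.555 and 0.826 CPM in wild type. AT4G11190, a dirigent-like gene, was at 2.01 and 2.17 CPM in cml24-2 with Al, against 1.33 and 2.94 CPM in wild type, and at 1.42 and 1.68 CPM in cml24-2 without Al, against 12.5 and 15.03 CPM in wild type. MSRB6, a methionine sulfoxide reductase gene, was at 4.44 and 5.603 CPM in cml24-2 with Al, against 2.74 and 3.98 CPM in wild type, and at 4.61 and 3.53 CPM in cml24-2 without Al, against 12.5 and 13.5 CPM in wild type.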

How the results depend on the processing

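With Al, 876 genes were higher and 701 lower with RLE size factors, 829 and 622 without a filter, 911 and 657 with the strict filter, 694 and 597 with DESeq2, 782 and 535 with limma on log2(FPKM + 1) and 690 and 481 on log2(FPKM + 0.1). The 4 libraries alone gave 1894 and 1446. Leaving out 1 library gave 82 to 1591 higher and 66 to 1217 lower. Without Al, DESeq2 gave 987 higher, the 4 libraries alone 481 higher and 407 lower, and leaving out 1 library 516 to 1898 higher and 291 to 1309 lower. The interaction was called in 199 genes with DESeq2 and in 12 to 482 with 1 library left out. No call of a named gene or list member changed sign under the alternatives run.

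The correlation of same-numbered libraries' deviations from their group means was 0.043 between the genotypes with Al, -0.105 between those without, 0.144 between the cml24-2 groups, -0.018 between the wild-type groups, and -0.168 and -0.041 between the crossed pairs of groups. Fewer than all pairs were above 0.1, so the numbers were not taken as pairs. The replicate block gave 780 genes higher and 625 lower with Al, 1402 and 1129 without Al, and 57 interactions. With the numbers of cml24-2 without Al exchanged, an alternative chosen after seeing the data, 1294 were higher and 889 lower without Al. Of the 143 named genes and list members called with Al, 118 kept their call with DESeq2, 118 with the block, 53 and 45 with cml24-2 Al replicates 1 and 2 left out, and 26 and 25 with those of wild type left out. Of the 1625 genes called with Al, 18 had no adjusted p in DESeq2. The cause of these shifts was not tested.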
